A study of Mus musculus with 4 samples.

Results

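The cells described here are the Fxyd4 Tgm3 absorptive colonocytes of the mouse colon: 95 cell barcodes (59 in batch 1 and 36 in batch 2) of 13158 that passed the quality limits. They were chosen from their own transcript counts. A barcode had to carry at least 3 unique molecular identifiers (UMIs, 1 per captured transcript) of the epithelial genes Epcam and Krt8 together and at least 5 of Fxyd4 and Tgm3 together. Car1 had to stay below 0.1% of its gene UMIs and Aqp8 and Clca4a together below 5 UMIs. Cells with marker transcripts of cycling, inflamed, goblet, enteroendocrine or leukocyte cells were left out. Because the counts themselves chose these cells, every comparison of them with other cells below is a description and carries no test.

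The study profiled colon cells of C57/BL6J mice by droplet single-cell RNA sequencing of transcript 3' ends. Its 4 conditions were JUP-KO mice given dextran sulfate sodium (DSS, which injures the colon lining), untreated JUP-KO mice, wild-type mice given DSS, and untreated wild-type mice. Cells of each condition carried 1 hashtag antibody, and the 4 were mixed, sorted for viability and loaded as 1 library per batch. Per the labels, 23000 to 25000 cells were loaded per batch. The hashtags are named TG_DSS, TG_WT, Ctrl_DSS and Ctrl_WT. Both readings of the labels make TG_DSS the JUP-KO mice given DSS and Ctrl_WT the untreated wild type, while TG_WT and Ctrl_DSS change places depending on whether the tag names or the antibody numbers are followed, so groups are called by tag name. The sources used here do not give the number or age of the mice pooled, the DSS dose, whether the batches were separate mice, or the promoter or cell type behind the JUP knockout. The 2 batches differed in depth, with 133919905 and 95408149 gene UMIs and a median of 12984 and 7471.5 UMIs per quality barcode. They shared 13 barcode sequences among their quality barcodes.

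Absorptive colonocytes take up sodium, chloride, water and short-chain fatty acids across the surface of the large intestine, and their transport proteins change along its length. Fxyd4, also called CHIF, is a small membrane protein that tunes the sodium-potassium pump and is known in rat as a corticosteroid-induced gene of distal colon and kidney collecting duct. Tgm3 is a transglutaminase, an enzyme that cross-links proteins. Car1 is a cytosolic carbonic anhydrase of colonocytes, while Aqp8, a water channel, and Clca4a mark colonocytes near the luminal surface.

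Of the genes that define these cells, Fxyd4 (ENSMUSG00000004988) lies at chr6:117933559-117937692 on the minus strand and Tgm3 (ENSMUSG00000027401) at chr2:130012349-130050399 on the plus strand of mm10. Sycn (ENSMUSG00000084174), which encodes syncollin, known as a zymogen granule protein of the exocrine pancreas, lies at chr7:28540885-28542209 on the plus strand. The 250 bases before the annotated start of these genes are shown because the rule chose the cells on Fxyd4 and Tgm3 and because Sycn, which it did not use, was the most abundant of the other markers. They are RefSeq sequences of GRCm38.p6, given 5' to 3' on the strand of the gene, at chr6:117937336-117937585 for Fxyd4, chr2:130012090-130012339 for Tgm3 and chr7:28540635-28540884 for Sycn. The Fxyd4 window lies inside the gene's GENCODE span, whose start differs from that of RefSeq. Capitals mark matches on either strand to TATAAA, the core promoter box, to AGAACA, a piece of the sequence that steroid receptors bind, or to TTTATNG, of the kind that posterior homeobox factors bind.
Fxyd4: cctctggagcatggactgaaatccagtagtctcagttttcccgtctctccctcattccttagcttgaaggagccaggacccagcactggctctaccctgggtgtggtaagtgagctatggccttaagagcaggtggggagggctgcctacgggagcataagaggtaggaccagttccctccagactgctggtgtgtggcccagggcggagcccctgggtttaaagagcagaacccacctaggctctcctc
Tgm3: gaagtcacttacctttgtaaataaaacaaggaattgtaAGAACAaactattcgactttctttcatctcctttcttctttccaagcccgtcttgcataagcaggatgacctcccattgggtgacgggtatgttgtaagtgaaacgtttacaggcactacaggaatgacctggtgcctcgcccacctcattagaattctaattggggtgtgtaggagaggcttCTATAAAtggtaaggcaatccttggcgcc
Sycn: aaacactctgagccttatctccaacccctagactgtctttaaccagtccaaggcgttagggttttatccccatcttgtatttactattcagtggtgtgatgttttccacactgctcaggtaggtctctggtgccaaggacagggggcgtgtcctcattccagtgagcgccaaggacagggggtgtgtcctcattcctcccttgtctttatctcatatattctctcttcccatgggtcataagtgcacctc
Only the Tgm3 window held matches: TATAAA at 28 to 23 bases before the start, AGAACA at 212 to 207 bases before it, and TTTATNG on the opposite strand at 29 to 23 bases, overlapping the TATAAA. Of 32851 promoters of this length, 12.4% held TATAAA, 16.1% held AGAACA and 9.81% held TTTATNG. The windows were 58% G and C in Fxyd4, 44% in Tgm3 and 49.2% in Sycn.

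The label rested on Tgm3 more than on Fxyd4. Tgm3 was detected in all 95 members, with 1 to 85 UMIs and a median of 11. Fxyd4 was detected in 47 of 95, with a median of 0 and at most 68 UMIs, and 26 members had at least 4. At least 1 UMI of the other listed markers was seen in most members: of Ckmt1, the mitochondrial creatine kinase that buffers cellular energy, in 94, of Sycn in 91, and of Ggh, a hydrolase that trims folate polyglutamates, in 86. After thinning to 1000 UMIs, Ckmt1 was found in 91.5% and 75% of members in batches 1 and 2, against 1.44% and 1.56% of leukocytes. Sycn was found in 86.4% and 80.6% of members, against 4.86% and 5.32% of leukocytes, and Ggh in 72.9% and 52.8%, against 6.13% and 5.68%. Fxyd4 was found in 10.2% and 30.6% of members, and in 0.18% and 0.0917% of leukocytes, which should lack it. Members had medians of 15911 and 16846 UMIs before thinning, and leukocytes 3358 and 4748. The summed level of 9 absorptive colonocyte markers was 6262 and 5349 CPM (UMIs of a gene scaled to a total of 1000000 gene UMIs) in members, against 6620 and 8766 CPM in Car1-high colonocytes, 12350 and 16790 CPM in Aqp8 Clca4a colonocytes, and 3747 and 7028 CPM in all other epithelial cells. Car1-high colonocytes had Car1 over the limit, Aqp8 Clca4a colonocytes at least 5 UMIs of those genes, and the other epithelial cells include both groups. Much of the members' sum was Guca2a, at 3787 and 3661 CPM in members of at least 10000 UMIs. The median log2 ratio of the 9 against all other epithelial cells was 0.59 and -0.32, beside -0.11 and -0.01 over all genes. Against Aqp8 Clca4a colonocytes, Car4, Krt20, Slc26a3 and Slc9a3 were at least 2-fold lower, beside 2.35% of all genes, and 0 were higher.

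Car1 was not absent from the members. It was detected in 90 of 95, at 453 CPM (95% exact Poisson interval 410 to 500) in batch 1 and 396 CPM (347 to 450) in batch 2. Leukocytes held 279 and 197 CPM, and the barcodes of at most 100 UMIs, taken as free RNA, 7904 and 10616 CPM. After thinning, 27.1% and 41.7% of members had a Car1 UMI, against 28.6% and 20.6% of leukocytes. By level the members lay above leukocytes in both batches, and by share in batch 2. The part of free RNA in these values was not tested.

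The members made up 1.26% of epithelial barcodes in batch 1 (59 of 4696, 95% exact Clopper-Pearson interval 0.958 to 1.62%) and 1.30% in batch 2 (36 of 2760, 0.915 to 1.80%). The intervals and floors given here cover counting error only. Most cells with Fxyd4 and Tgm3 were not members. Of 4217 epithelial barcodes that met every other limit, 1099 had at least 5 UMIs of Fxyd4 and Tgm3, and the members were 8.64% of them. A further 337 (30.7%) were over the Car1 limit alone, 100 (9.10%) over the Aqp8 and Clca4a limit alone, and 567 (51.6%) over both. No gap in Car1 set the members apart from these cells.

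**Figure D1:**
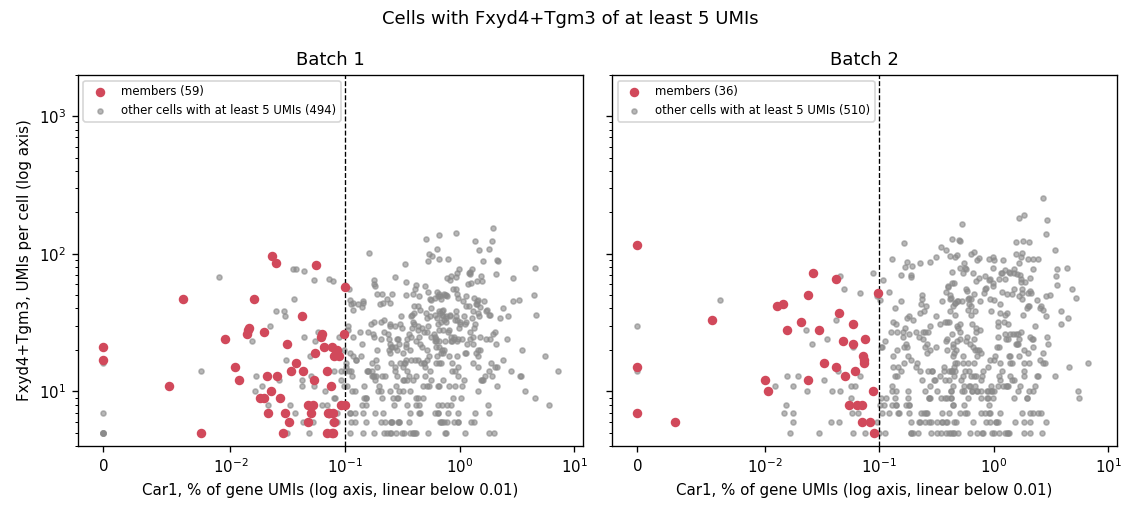
Car1 as a percentage of gene UMIs (x, log axis, linear below 0.01) against the UMIs of Fxyd4 and Tgm3 (y, log axis) in the 1099 cells with at least 5 of the latter, by batch; each point is a cell and the dashed line is the 0.1% Car1 limit. The 95 members are red, the other cells grey, and grey points left of the line were over the Aqp8 and Clca4a limit; the points run across the line without a gap.

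Each of the 5 markers was higher in members than in the other epithelial cells of the same batch. Sycn was at 12224 and 12897 CPM in members, against 2910 and 3083 CPM in Car1-high colonocytes, 4523 and 3622 CPM in Aqp8 Clca4a colonocytes and 2525 and 2745 CPM in all other epithelial cells. Ckmt1 was at 2772 and 2867 CPM in members, against 1187 and 1385 CPM in Car1-high, 1363 and 1462 CPM in Aqp8 Clca4a and 707 and 943 CPM in all other epithelial cells. The batches gave like values in members for both genes, and none of these 3 groups, each taken as a whole, reached them. The Car1-high cells that also had at least 5 UMIs of Fxyd4 and Tgm3 had more Ckmt1 than members, at 3331 and 3166 CPM.

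Ggh was at 1691 and 1451 CPM in members, against 546 and 742 CPM in Car1-high, 1069 and 1273 CPM in Aqp8 Clca4a and 361 and 584 CPM in all other epithelial cells. Tgm3, a gene of the rule, was at 1025 and 921 CPM in members and at 939 and 903 CPM in Aqp8 Clca4a colonocytes, so these groups were alike in it. It was lower in Car1-high colonocytes, at 223 and 273 CPM, and in all other epithelial cells, at 179 and 304 CPM. Fxyd4 differed between the batches, with 274 CPM in batch 1 (240 to 310) and 638 CPM in batch 2 (575 to 706) in members. It was at 61.4 and 155 CPM in Car1-high, 151 and 296 CPM in Aqp8 Clca4a and 43.6 and 120 CPM in all other epithelial cells, higher in batch 2 in each.

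**Figure D2:**
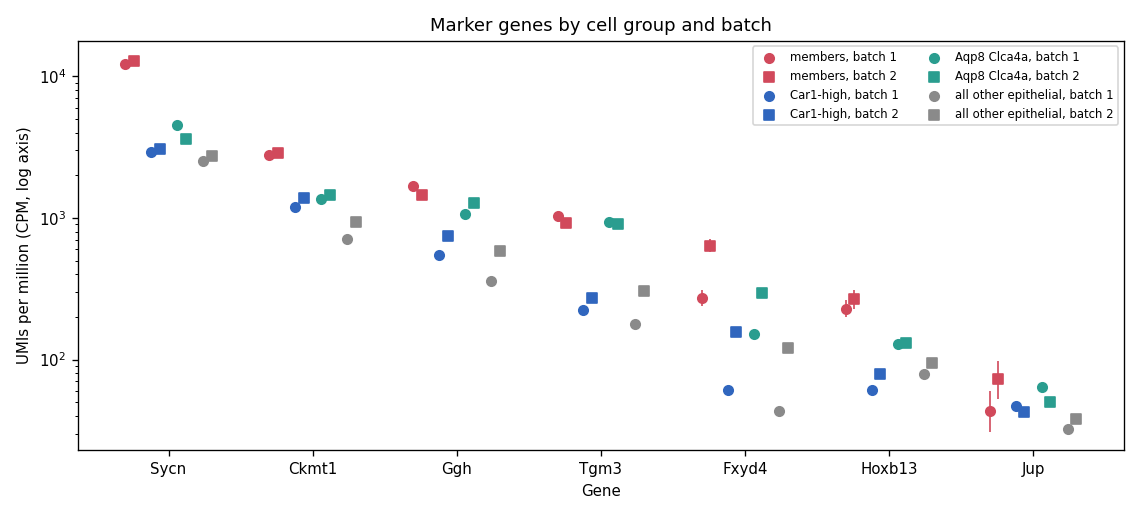
CPM (y, log axis) of 5 markers, Hoxb13 and Jup (x), summed over the cells of each group in batch 1 (circles) and batch 2 (squares); bars on members are 95% exact Poisson intervals. Members (59 and 36 cells) lie above the 937 and 697 Car1-high cells, the 674 and 683 Aqp8 Clca4a cells and the 4637 and 2724 other epithelial cells for Sycn, Ckmt1 and Hoxb13, and level with the Aqp8 Clca4a cells for Tgm3.

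Jup, the gene targeted in the study, encodes plakoglobin, which links cadherins to the cytoskeleton at desmosomes. It was detected in 33 of 95 members, at 43.5 CPM (31.0 to 59.5) in batch 1 and 72.8 CPM (52.7 to 98.0) in batch 2. The levels were 46.8 and 42.3 CPM in Car1-high, 64.2 and 50.1 CPM in Aqp8 Clca4a and 32.2 and 38.1 CPM in all other epithelial cells, so the members' values lay on both sides of the colonocyte groups. By tag, Jup gave 0 UMIs of 38350 and 33286 gene UMIs in TG_DSS members, 9 of 69354 and 0 of 12729 in TG_WT members, 0 of 20786 and 0 of 3274 in Ctrl_DSS members, and 3 of 22744 in the Ctrl_WT member of batch 2. Counts this low do not check the labels. No member was called TG_DSS or Ctrl_DSS under the second tag rule given below.

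The 4 conditions could not be compared in these cells. No tag was called on 81 of 95 members (84.7% in batch 1 and 86.1% in batch 2), 2 carried several, and 12 carried exactly 1. Of all epithelial barcodes, 74.2% and 71.8% had no tag, and of leukocytes 1.26% and 0.733%. In batches 1 and 2, TG_DSS members were 2 of 334 (0.599%, 95% exact binomial interval 0.0726 to 2.15%) and 2 of 140 (1.43%, 0.173 to 5.07%) of the epithelial barcodes with that tag. TG_WT members were 4 of 301 (1.33%, 0.363 to 3.37%) and 1 of 160 (0.625%, 0.0158 to 3.43%). Ctrl_DSS members were 1 of 299 (0.334%, 0.00847 to 1.85%) and 1 of 335 (0.299%, 0.00756 to 1.65%). Ctrl_WT members were 0 of 71 (a count of 0 leaves room for up to 4.23%) and 1 of 54 (1.85%, 0.0469 to 9.89%). These intervals overlap for every tag and do not cover errors of tag calling. A second rule, the highest-tag rule, asked the top tag for a 3-fold lead over the runner-up. Over both batches, TG_DSS, TG_WT, Ctrl_DSS and Ctrl_WT members then numbered 0, 4, 0 and 1. By the main calls they numbered 4, 5, 2 and 1. Epithelial barcodes with these tags numbered 46, 461, 218 and 57, against 474, 461, 634 and 125 by the main calls. The shares given rest on the main calls only. No tag had 10 members in a batch, the smallest sum set for a fit, so a difference between conditions was not detectable at this depth.

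Cyp2c68, Sycn, Aqp4 and Ano1 had the highest ratios in members against all other epithelial cells. Of 9936 genes with a mean of at least 5 CPM in epithelial cells, 65 (0.654%) were at least 2-fold higher and 334 (3.36%) at least 2-fold lower in members than in all other epithelial cells in both batches, on the scale of CPM + 10. The rule used this contrast, so nothing is read from these counts. In batch 1 alone 138 were higher and 616 lower, in batch 2 alone 165 and 545, and with 1 CPM added in place of 10 they were 127 and 984. Aqp4, a water channel, was at 1251 and 982 CPM in members, against 247 and 213 CPM in all other epithelial cells. Ano1, a calcium-activated chloride channel, was at 266 and 327 CPM in members, against 46.7 and 66.2 CPM. It was detected in 52 of 59 and 32 of 36 members, and after thinning in 30.5% and 47.2% of members, against 0.36% and 0.183% of leukocytes.

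Cldn8, a claudin that tightens the paracellular barrier, was at 237 and 244 CPM in members, against 61.4 and 71.1 CPM in all other epithelial cells. Il18, an epithelial cytokine of the interleukin 1 family, was at 700 and 772 CPM, against 179 and 215 CPM. Wfdc2, a secreted protein of the whey acidic protein family, was at 1609 and 1545 CPM, against 518 and 433 CPM. These ratios differed little between the batches, with log2 ratios of 1.79 and 1.64 for Cldn8, 1.91 and 1.80 for Il18 and 1.62 and 1.81 for Wfdc2. Cela1, an elastase best known from the pancreas, was at 685 and 691 CPM in members, against 213 and 205 CPM.

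Among enzymes, the cytochrome P450 gene Cyp2c68 was at 344 and 455 CPM in members, against 57.8 and 57.7 CPM in all other epithelial cells, the largest ratio by the ordering used (log2 2.38 and 2.78). Its near copy Cyp2c69 was at 67.0 and 72.8 CPM, against 15.8 and 14.7 CPM, and reads could be split between them. Hao2, a peroxisomal hydroxy acid oxidase, was at 904 and 901 CPM, against 271 and 232 CPM. Abat, which breaks down the transmitter GABA, was at 243 and 276 CPM, against 63.7 and 85.0 CPM. The other genes of the 20 highest were Gm15401, Gsdmc4, Slc37a2, Unc119, Pdzk1ip1, Rapgefl1, Eno3 and Tnni1, beside Sycn and Ckmt1. The mean log2 ratio of Slc37a2 over the batches was 1.73, but 1.00 with a mitochondrial limit of 10% and 0.79 in members of at least 10000 UMIs and at most 10% mitochondrial UMIs. Gsdmc4, a gasdermin C gene with near copies that share its reads, was at 1221 and 1679 CPM, against 319 and 319 CPM.

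The 10 genes with the lowest ratios against all other epithelial cells were secreted products: Reg3b, Spink4, Zg16, Reg3g, Mptx1, Sval1, Clca1, Retnlb, Spink1 and Tff3. Goblet cells were among the other epithelial cells, and 7 goblet markers summed to 570 and 667 CPM in members, against 19323 and 31436 CPM in all other epithelial cells. Reg3b and Reg3g, antimicrobial lectins of enterocytes, were low in members against colonocytes as well. Reg3b was at 29.0 CPM (19.0 to 42.5) and 6.77 CPM (1.84 to 17.3) in members, against 12156 and 6074 CPM in Car1-high, 3877 and 828 CPM in Aqp8 Clca4a and 5932 and 2330 CPM in all other epithelial cells. No member had more than 3 Reg3b UMIs. Leukocytes held 86.8 and 29.0 CPM, so the members' level was at or below that of cells that should lack the gene.

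**Figure D3:**
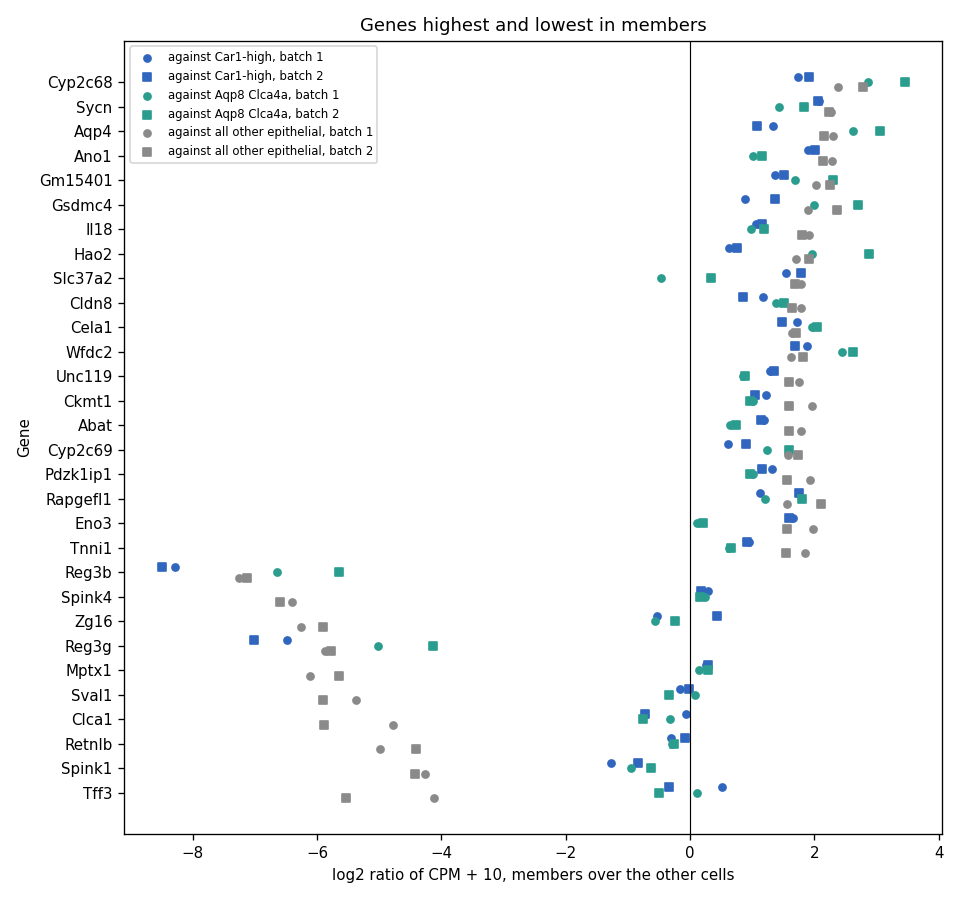
Log2 ratio of CPM + 10, members over Car1-high (blue), Aqp8 Clca4a (green) and all other epithelial cells (grey), in batch 1 (circles) and batch 2 (squares), for the 20 genes highest and 10 lowest in members against all other epithelial cells (y). Reg3b and Reg3g are below 0 in every comparison, and Slc37a2 and Eno3 are near 0 against Aqp8 Clca4a cells.

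Against Car1-high colonocytes, 83 genes (0.835%) were at least 2-fold higher and 119 (1.2%) at least 2-fold lower in both batches. In batch 1 alone 128 were higher and 154 lower, in batch 2 alone 227 and 250, and with 1 CPM added 194 and 327. The higher genes were B3gnt7, Sycn, Ano1, Klk1, Esrrg, Cyp2c68, Wfdc2, St3gal6, Hoxb13 and Ccl20 by the ordering used. Klk1, tissue kallikrein, was at 2342 and 2146 CPM in members, against 555 and 630 CPM in Car1-high colonocytes. Esrrg, an orphan nuclear receptor, was at 157 and 134 CPM, against 32.3 and 32.7 CPM. Ccl20, a chemokine, was at 24.6 and 274 CPM, against 1.26 and 4.81 CPM, but 157 of its 162 UMIs in batch 2 came from 1 cell. It was detected in 5 of 59 and 2 of 36 members, and its mean log2 ratio was -0.21 when Fxyd4 and Tgm3 had to reach 0.1% of UMIs.

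Of 14 listed genes of bile acid and calcium handling, 10 passed the level limit, and against Car1-high colonocytes 0 were at least 2-fold higher and 4 at least 2-fold lower in members, beside 0.835% and 1.2% of all genes. The median log2 ratio of the 10 was -0.96 and -1.36, beside 0.02 and 0.09 over all genes. Slc51a, a subunit of the basolateral bile acid exporter, had 0 UMIs in all members, against 117 and 119 CPM in Car1-high colonocytes, so it was at least 35.0-fold and 23.5-fold lower (3 UMIs per batch as the floor). Its partner subunit Slc51b was at 91.5 and 71.1 CPM in members, against 243 and 322 CPM. Slc10a2, the apical bile acid importer, was at 5.58 and 6.77 CPM, against 105 and 172 CPM. S100g, the calcium-binding protein calbindin-D9k, was at 3.35 and 5.08 CPM, against 309 and 170 CPM. The list's median is the same with Slc51a set to its bound.

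Prap1, a secreted epithelial protein, and the defensin Defb37 had 0 UMIs in members, which put Prap1 at least 40.4-fold and 36.2-fold lower and Defb37 at least 19.7-fold and 23.5-fold lower than in Car1-high colonocytes.

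The homeobox genes that mark position along the gut differed in both directions from Car1-high colonocytes. Hoxb13, a gene of the hindgut end, was at 229 CPM (199 to 262) and 266 CPM (226 to 311) in members, against 60.8 and 78.7 CPM in Car1-high, 128 and 132 CPM in Aqp8 Clca4a and 79.4 and 95.1 CPM in all other epithelial cells. It was detected in 48 of 59 and 29 of 36 members. Hoxb6 and Hoxb7, which lie earlier in the same cluster, had 0 UMIs in members, against 29.0 and 27.1 CPM and 30.8 and 26.0 CPM in Car1-high colonocytes, at least 8.65-fold and 5.34-fold lower for Hoxb6 and at least 9.20-fold and 5.11-fold lower for Hoxb7. Hoxb8 had 1 and 0 UMIs, against 17.8 and 16.3 CPM. Hoxb9 lay between, at 17.9 and 32.2 CPM in members, against 48.3 and 45.4 CPM. Osr2, a zinc finger gene of the same list, had 3 and 0 UMIs, against 45.2 and 47.5 CPM. Of 22 listed genes 14 passed the level limit. Against Car1-high colonocytes 1 was at least 2-fold higher and 4 at least 2-fold lower, beside 0.835% and 1.2% of all genes. Their median log2 ratio was 0.01 and 0.04, which stays the same with Hoxb6 and Hoxb7 set to their bounds. Against Aqp8 Clca4a colonocytes 0 were at least 2-fold higher and only Osr2 at least 2-fold lower, beside 1.31% and 2.35%. That group had 15.8 and 6.75 CPM of Hoxb6 and 11.5 and 6.33 CPM of Hoxb7. Members were at least 4.72-fold and 1.33-fold lower for Hoxb6 and at least 3.42-fold and 1.25-fold lower for Hoxb7.

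Against Aqp8 Clca4a colonocytes, 130 genes (1.31%) were at least 2-fold higher and 233 (2.35%) at least 2-fold lower in both batches. The median log2 ratio of all genes was 0.02 and 0.16. The higher genes were Cyp2c68, Aqp4, Wfdc2, Fads2, Gsdmc4, Gsdmc3, Pigr, Cela1, Hao2 and Scd2. Pigr, which carries immunoglobulin A across the epithelium, was at 2333 and 2217 CPM in members, against 590 and 497 CPM in Aqp8 Clca4a colonocytes. Scd2, a fatty acid desaturase, was at 314 and 432 CPM, against 81.1 and 54.3 CPM, and Fads2, another, had log2 ratios of 2.42 and 2.93. In batch 1 alone 162 genes were higher and 302 lower, in batch 2 alone 612 and 454, and with 1 CPM added 383 and 435.

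Of 22 listed genes of differentiation and the microvillus, 0 were at least 2-fold higher and 7 at least 2-fold lower in members than in Aqp8 Clca4a colonocytes, beside 1.31% and 2.35% of all genes: Cdhr2, Ceacam1, Ceacam20, Emp1, Krt20, Mxd1 and Sectm1b. Their list had a median log2 ratio of -0.72 and -1.08. Both groups were chosen by Aqp8 and Clca4a, which mark colonocytes near the surface, so lower genes of mature surface cells could be partly set by the choice of cells. Krt20, a keratin of mature colonocytes, was at 497 and 267 CPM in members, against 1567 and 2117 CPM in Aqp8 Clca4a colonocytes. Slc26a3, the chloride-bicarbonate exchanger, was at 438 and 379 CPM, against 1168 and 1736 CPM, and Slc9a3, the sodium-hydrogen exchanger, at 58.1 and 23.7 CPM, against 263 and 354 CPM. Tmigd1, an epithelial adhesion protein, was at 40.2 and 1.69 CPM, against 508 and 625 CPM. The other genes of the 10 lowest were Reg3b, Emp1, Reg3g, Mal, Gcnt3, Prap1, 2210407C18Rik, Fabp5 and Sptssb.

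Sodium and chloride transport showed no single direction. Of 24 listed genes 20 passed the level limit. Ano1, Slc5a8 and Slc6a14 were at least 2-fold higher and Fxyd3 and Slc12a2 at least 2-fold lower than in all other epithelial cells, beside 0.654% and 3.36% of all genes. Slc5a8, a sodium-coupled transporter of short-chain fatty acids, was at 449 and 376 CPM in members, against 160 and 147 CPM. Slc6a14, an amino acid transporter, was at 568 and 516 CPM, against 165 and 208 CPM. Slc12a2, the basolateral sodium-potassium-chloride importer of secreting cells, was at 32.4 and 5.08 CPM, against 205 and 141 CPM. Scnn1b, a subunit of the epithelial sodium channel, had 1.12 and 1.69 CPM in members. The partner subunit Scnn1a was at 59.2 and 54.2 CPM, against 33.3 and 59.9 CPM. Of 11 aldosterone response genes measured, 0 passed 2-fold in either direction against all other epithelial cells, with a median log2 ratio of 0.39 and 0.40, beside -0.11 and -0.01 over all genes. Against Car1-high colonocytes Sgk1 was at least 2-fold lower and 0 were higher, beside 1.2% and 0.835% of all genes. Against Aqp8 Clca4a colonocytes Sgk1 was at least 2-fold lower and Hsd11b2 at least 2-fold higher, beside 2.35% and 1.31% of all genes.

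The rule itself limited Ptprc, S100a8 and S100a9, Mki67 and Top2a, Chga and Chgb, and Muc2, so low markers of leukocytes and of neutrophil, cycling, enteroendocrine and goblet cells were partly set by the choice of cells. It also left out cells with at least 2 of Cxcl5, Nos2, Duoxa2 and Ly6g detected, which the group of all other epithelial cells kept. Low inflammatory response genes against that group could be partly set by this. The Car1-high and Aqp8 Clca4a groups had the same limit. The 7 goblet genes summed to 570 and 667 CPM in members, above the 359 and 425 CPM of Car1-high and the 323 and 442 CPM of Aqp8 Clca4a colonocytes. Among them Agr2, a protein-folding enzyme of secretory cells, was at 380 and 352 CPM in members, against 167 and 169 CPM in Car1-high and 104 and 89.0 CPM in Aqp8 Clca4a colonocytes. The 4 T cell genes had 0 UMIs. The 5 neutrophil genes summed to 42.4 and 60.9 CPM, against 48.7 and 82.3 CPM in all other epithelial cells and 80819 and 59758 CPM in leukocytes, with Csf3r and Cxcr2 at 0. The 6 enteroendocrine genes summed to 4.47 and 1.69 CPM and the 4 tuft genes to 4.47 and 3.39 CPM. The 5 stem and cycling genes summed to 13.4 and 16.9 CPM, with Lgr5 at 0. The 4 plasma and B cell genes summed to 2.23 and 13.5 CPM, with Cd79a and Mzb1 at 0. The 4 fibroblast genes summed to 1.12 and 3.39 CPM, with Col1a1 and Col1a2 at 0, and the 3 endothelial genes to 2.23 and 3.39 CPM, with Cdh5 and Kdr at 0. The 5 macrophage genes summed to 2.23 and 89.7 CPM, and in batch 2, 30 of the 31 Lyz2 UMIs came from 1 cell.

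The members' profile was largely shared by cells over the Car1 limit. Against the 177 and 160 Car1-high cells that also had at least 5 UMIs of Fxyd4 and Tgm3, 11 genes (0.111%) were at least 2-fold higher and 15 (0.151%) at least 2-fold lower in members. Against the 760 and 537 Car1-high cells with fewer, 146 (1.47%) were higher and 151 (1.52%) lower. These cell groups differ in size and were split after the values had been seen. The 11 higher genes were Ccl20, Kcne3, Rangrf, Gstm1, Htr4, 2410006H16Rik, Ifitm2, Snhg1, Hspe1, Klf12 and Stmn1. Kcne3, a potassium channel subunit of crypt cells, was at 52.5 and 72.8 CPM in members, against 12.7 and 21.6 CPM. The 15 lower genes included Reg3b, S100g, Sprr2a3, Emp1, Saa1, Slc9a3, Fabp2 and Sectm1b. Fabp2, an intestinal fatty acid-binding protein, was at 532 and 264 CPM in members, against 1147 and 901 CPM.

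Cells on both sides of the Car1 limit with Fxyd4 and Tgm3 were alike in Sycn and Hoxb13. Ckmt1 and Ggh were higher in the cells over the limit, and Reg3b was low in both groups and lower in members. Sycn was at 12224 and 12897 CPM in members and 10649 and 10172 CPM in cells over the limit, against 1400 and 1135 CPM in Car1-high cells with under 5 UMIs of Fxyd4 and Tgm3. Hoxb13 was at 229 and 266 CPM in members and 230 and 273 CPM in cells over the limit, against 27.8 and 25.3 CPM. Ckmt1 was at 2772 and 2867 CPM in members and 3331 and 3166 CPM in cells over the limit, against 769 and 896 CPM. Ggh was at 1691 and 1451 CPM in members and 2103 and 2242 CPM in cells over the limit, against 242 and 329 CPM. Reg3b was at 29.0 and 6.77 CPM in members and 98.8 and 38.5 CPM in cells over the limit, log2 ratios of -1.48 and -1.53, against 14509 and 7732 CPM. The cells over the limit lay near the leukocyte level of Reg3b given above, and the members below it. Slc51a was at 0 CPM in members and 3.47 and 1.15 CPM in cells over the limit, against 139 and 152 CPM. The comparison with all Car1-high colonocytes mixed both kinds of cell. The Aqp8 Clca4a group was mixed too. Of its 1357 cells in both batches, 100 with Car1 under the limit and 567 with more had at least 5 UMIs of Fxyd4 and Tgm3. Some of these traits were shared by the 845 and 286 cells with Car1 under the limit and under 5 UMIs of Fxyd4 and Tgm3. These had 1.10 and 2.65 CPM of Slc51a and 3.46 and 1.77 CPM of Slc10a2. They had 6.84 and 6.64 CPM of Prap1, and B3gnt7, a glycosyltransferase, was at 160.8 and 308 CPM in members, against 154 and 226 CPM in them. Wfdc2 was at 1071 and 1186 CPM and Esrrg at 114 and 74.8 CPM in these cells, against 1609 and 1545 CPM and 157 and 134 CPM in members. S100g was low in them too, at 13.8 and 13.5 CPM. Their Hoxb13, at 127 and 156 CPM, lay between members and Car1-high cells with under 5 UMIs. Sycn was at 4068 and 4085 CPM and Reg3b at 1775 and 928 CPM in these cells, unlike in members. Ano1 (30.7 and 37.8 CPM), Klk1 (737 and 870 CPM) and Cyp2c68 (152 and 151 CPM) were also lower in them than in members.

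**Figure D4:**
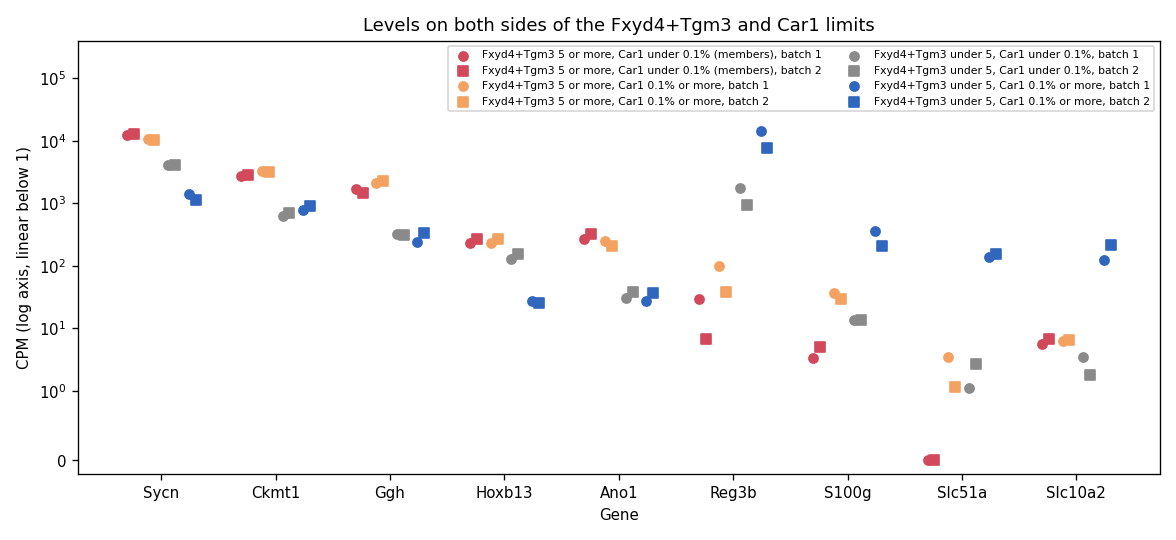
CPM (y, log axis, linear below 1) of 9 genes (x) in cells below 5 UMIs of Aqp8 and Clca4a, split by Fxyd4 and Tgm3 (5 UMIs) and by Car1 (0.1% of UMIs), in batch 1 (circles) and batch 2 (squares). Members (red) lie beside the cells over the Car1 limit (orange) for Sycn, Hoxb13 and Ano1, and somewhat below them for Ckmt1 and Ggh. Cells under both limits (grey) share the low Slc51a and Slc10a2. Car1-high cells with fewer than 5 UMIs (blue) carry Reg3b, S100g, Slc51a and Slc10a2.

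Of the 1099 cells with at least 5 UMIs of Fxyd4 and Tgm3, whatever their Aqp8 and Clca4a, 1092 had Car1 under 5% and were divided into ranges of Car1. Sycn was at 11294 and 9932 CPM in the 65 and 46 cells with Car1 up to 0.05% and at 8541 and 8037 CPM in the 25 and 55 cells with 2 to 5%. Ckmt1 was at 2732 and 2454 CPM in the lowest range and 2605 and 2815 CPM in the highest. Hoxb13 was at 224 and 252 CPM and at 269 and 236 CPM. Wfdc2 differed more, at 1118 and 1162 CPM in the lowest range and 388 and 668 CPM in the highest, and Krt20 went the other way, at 793 and 539 CPM and at 1672 and 1825 CPM. Reg3b differed by batch. In batch 1 it was at 30.4 CPM in the lowest range and at 2180, 2365 and 1232 CPM in the ranges from 0.5, 1 and 2% of Car1. In batch 2 it was at 10.4 CPM in the lowest range and at 14.2, 197 and 16.2 CPM in those. Median UMIs were 10609 and 9373.5 in the lowest range and 15046 and 18855 in the highest, and the part of depth in these values was not tested.

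The members just inside and just outside the limits were few. With exactly 5 UMIs of Fxyd4 and Tgm3 there were 5 and 1 members, with 18391 and 454 CPM of Sycn. With 4 UMIs, otherwise meeting the rule, there were 4 and 4 cells, with 893 and 20919 CPM. Members with 0 UMIs of Aqp8 and Clca4a numbered 37 and 27 and had 241 and 274 CPM of Slc26a3. The 11 and 6 with 1 UMI had 377 and 297 CPM. The 7 and 2 with 2 UMIs had 1610 and 1351 CPM, and the 3 of batch 1 with 3 UMIs had 1702 CPM. The 1 and 1 members with 4 UMIs had 0 and 5914 CPM, and the 4 and 1 cells with 5 UMIs just outside had 1751 and 2650 CPM. Median gene UMIs were 16558 and 17121 in members with 0 UMIs of Aqp8 and Clca4a, and 6943 and 14434 in those with 2. This limit is a UMI count, and the part of depth was not tested.

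The members were not uniform. The genes with the highest variance over mean, after thinning to 1000 UMIs, included Malat1, Sycn, Gm42418, Guca2a, S100a6, Mt1, Car4, Lypd8, Lgals4, Crip1, Saa1, Slc26a3, Mgst3 and Rpl41. The ranges that follow are UMIs before thinning and also carry differences in depth. The members had 1905 to 43381 gene UMIs in batch 1 and 3028 to 53492 in batch 2. Sycn ran from 0 to 713 UMIs (median 178) in batch 1 and from 1 to 897 (median 162.5) in batch 2. Guca2a, the precursor of the peptide guanylin, ran from 0 to 296 (median 43) and from 0 to 309 (median 26.5). Mt1, a metallothionein, ran from 0 to 121 (median 1) and from 0 to 245 (median 5). Car4, a membrane carbonic anhydrase of surface colonocytes, was at 0 in 34 of 59 and 17 of 36 members and reached 32 and 31 UMIs.

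The 20 and 14 members under 10000 UMIs had a median mitochondrial share of 13.4% and 17.7%, against 5.49% and 2.59% in the 39 and 22 members with more. Malat1, a nuclear RNA, was at 38521 and 75361 CPM in the shallow members, against 10456 and 11054 CPM in the deeper ones. Car4 was at 1221 and 1113 CPM in the shallow members, against 171 and 25.4 CPM, and Rpl41, a ribosomal protein gene, at 1995 and 1751 CPM, against 4698 and 5403 CPM. Sycn was at 14633 and 3953 CPM in the shallow members, against 11896 and 14296 CPM, with no shared direction in the batches. The part of RNA quality in these values was not tested.

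Members with and without Fxyd4 were set side by side. The split, set after the values had been seen, put 12 and 14 members with at least 4 Fxyd4 UMIs beside 36 and 12 with 0, and is given without a test. In batch 1, H2-Aa, H2-Ab1, H2-Eb1 and Cd74, genes of MHC class II antigen presentation to helper T cells, were lower in the members with Fxyd4, while in batch 2 most or all of their UMIs in members without Fxyd4 came from 1 cell. H2-Aa was at 0 and 3.53 CPM in them, against 104 and 144 CPM in the members without. Cd74, the invariant chain of MHC class II, was at 41.5 and 3.53 CPM, against 344 and 225 CPM. H2-Ab1 was at 12.5 and 3.53 CPM, against 95.6 and 81.1 CPM, and H2-Eb1 at 0 and 3.53 CPM, against 38.2 and 49.9 CPM. In batch 1, H2-Aa was detected in 0 of 12 members with Fxyd4, against 9 of 36 without. In batch 2 it was detected in 1 of 14, against 2 of 12, and 22 of the 23 UMIs in members without Fxyd4 came from 1 cell, without which their level was 6.78 CPM. Of Cd74, 32 of 36 UMIs came from 1 cell, and the level was 27.1 CPM without it, while H2-Ab1 and H2-Eb1 were seen in 1 cell of 12. Ciita, which encodes the activator of these genes, was at 12.5 and 0 CPM in members with Fxyd4, against 4.25 and 0 CPM.

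The metallothioneins, which bind zinc and copper, were higher in members with Fxyd4. Mt1 was at 959 and 2722 CPM in members with Fxyd4, against 338 and 487 CPM in those without. Its highest cell held 121 of 231 and 245 of 772 UMIs in members with Fxyd4, against 41 of 159 and 46 of 78, and without these cells its level was 489 and 1977 CPM, against 260 and 252 CPM. Mt2 was at 95.5 and 173 CPM, against 21.2 and 0 CPM. In batch 1 it was detected in 2 of 12 members with Fxyd4, against 4 of 36 without, and 13 of the 23 UMIs in the former came from 1 cell. Without the highest cell of each group its level there was 49.6 CPM, against 10.9 CPM. In batch 2 it was detected in 7 of 14, against 0 of 12. Wfdc2 was at 2511 and 1900 CPM, against 1171 and 1061 CPM, and Cela1 at 996 and 910 CPM, against 540 and 462 CPM. Members with Fxyd4 were also deeper, with medians of 19576 and 18818.5 UMIs, against 14755 and 11162, and had lower Malat1, at 5852 and 8349 CPM, against 17123 and 27412 CPM.

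Among members with at least 10000 UMIs and at most 10% mitochondrial UMIs (8 and 12 with Fxyd4, 20 and 6 without), H2-Aa was at 0 and 3.74 CPM, against 102 and 173 CPM, and Mt1 at 1213 and 2536 CPM, against 393 and 549 CPM. The 173 CPM of batch 2 again held the 22 UMIs of 1 cell, without which it was 8.32 CPM. Mt1 differed in the same direction as in all members. Atp12a, the potassium-hydrogen pump of distal colon, was at 16.6 and 21.2 CPM in all members with Fxyd4, against 108 and 49.9 CPM in those without, but at 5.56 and 11.2 CPM, against 11.3 and 0 CPM, in the well-covered ones. Its difference did not hold there.

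The 112 and 158 cells with at least 4 Fxyd4 UMIs that exceeded a Car1 or Aqp8 and Clca4a limit, which are no members, were compared in the same way. H2-Aa was at 39.8 and 13.5 CPM in them, against 155 and 125 CPM in the 301 and 294 such cells without Fxyd4. Mt1 was at 914 and 1688 CPM, against 207 and 173 CPM. Atp12a was at 274 and 200 CPM, against 117 and 109 CPM, opposite in direction to the members. Malat1 was at 22324 and 24702 CPM, against 21267 and 29858 CPM, with no shared direction.

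**Figure D5:**
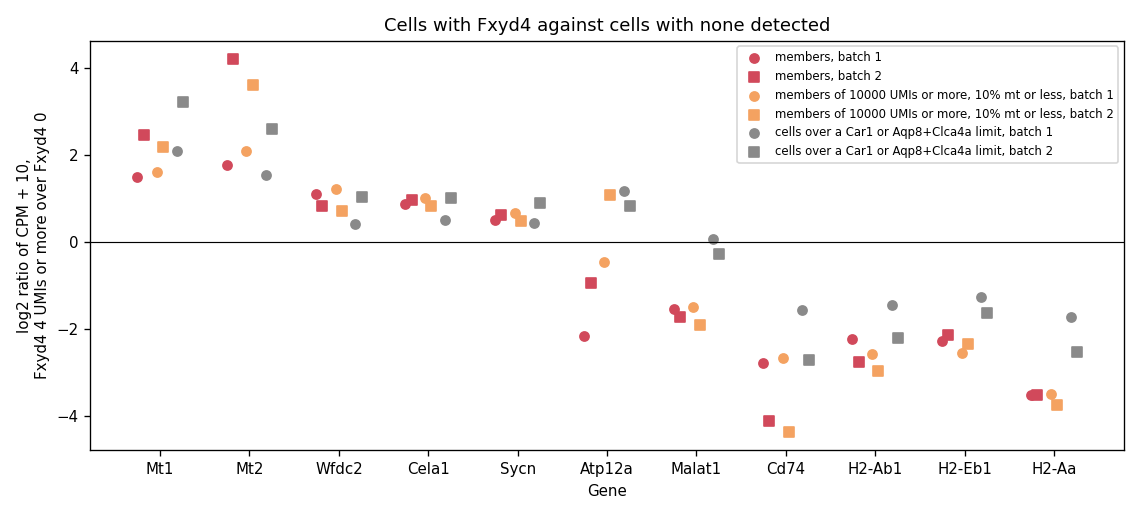
Log2 ratio of CPM + 10 (y), cells with at least 4 Fxyd4 UMIs over cells with 0, for 11 genes (x), in batch 1 (circles) and batch 2 (squares), for all members (red), members of at least 10000 UMIs and at most 10% mitochondrial UMIs (orange), and cells over a Car1 or Aqp8 and Clca4a limit (grey). The MHC class II genes lie below 0, for which in batch 2 members 1 cell holds most of the UMIs, Mt1 and Mt2 lie above 0 in all 3 sets, and Atp12a changes sign between them.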

How the data were processed

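Single cells of mouse colon were measured in 2 batches. The deposited values are raw UMI counts per gene and antibody tag for all barcodes. The authors made them with Cell Ranger 7.0.0 on mm10, going by the submitters' processing notes, which name no annotation release. Kept were 6914 and 6244 barcodes that reached 1000 gene UMIs and 250 genes, with mitochondrial UMIs no higher than 25%. The members and gene lists were chosen with earlier results of these data known. Counts were summed per cell group and batch and scaled to CPM. Ratios used CPM + 10, and a gene was counted when at least 2-fold in both batches. Named genes were the 20 highest and 10 lowest against all other epithelial cells, the 10 each way against Car1-high and against Aqp8 Clca4a colonocytes, the 15 most variable, the rule's genes, the 5 markers and Jup, ordered by the batch ratio nearer 0. Car1-high colonocytes met the same rule except that Car1 was at least 0.1% and for Fxyd4 and Tgm3, on which no limit was set. Aqp8 Clca4a colonocytes had at least 5 UMIs of Aqp8 and Clca4a, with no limit on the other 3 genes. Leukocytes had at least 2 UMIs of Ptprc and none of Epcam or Krt8.

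Tags were called by a mixture model with 2 components per tag and batch (scikit-learn 1.9.0). No doublet caller was run, and 2 members with several tags were kept. Quasi-likelihood tests between tags could not be fitted with 12 tagged members. The ratio step was tested on simulated data. Gene coordinates are from GENCODE M21, counted from 1, and promoters from RefSeq, of which Fxyd4, Tgm3, Sycn and Ckmt1 of the 5 markers matched. Poisson and Clopper-Pearson intervals are at 95%. Alternatives were other limits of the rule, thinning to 1000 UMIs, depth-matched cells, another pseudocount, each batch alone and well-covered members. Some genes that the naming rule or a list selects are not reported here.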

Additional observations from a re-analysis of the deposited data

How the results depend on the processing

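The share of members in batch 1 was 0.788% with at least 10 UMIs of Fxyd4 and Tgm3, 0.809% with at least 0.1% of gene UMIs, and 2.38% after thinning to 1000 UMIs with a limit of 1 UMI; the other alternatives stayed inside its interval, as all 5 did in batch 2. The highest-tag rule left 5 members with exactly 1 tag, in place of 12. With 1 CPM added, genes at least 2-fold higher and lower numbered 127 and 984 against all other epithelial cells, 194 and 327 against Car1-high and 383 and 435 against Aqp8 Clca4a colonocytes. In 1 batch alone these counts ran from 138 to 165 and 545 to 616, from 128 to 227 and 154 to 250, and from 162 to 612 and 302 to 454. Against Aqp8 Clca4a colonocytes, 68 were higher with the 0.1% limit and 204 in well-covered members. Against Car1-high cells with Fxyd4 and Tgm3, 11 were higher and 15 lower, with mean log2 ratios of -0.023 for Hoxb13 and 0.033 for Ces1g. With the 0.1% limit Ccl20 was at -0.21, and among well-covered members the Fxyd4 split of Atp12a was at 0.32. The cause of these shifts was not tested. Of the other values for named genes, 442 moved by less than the spread between batches and 151 by more. Values of each batch alone could only fall among the 442, because the spread came from the same 2 batch values. Without the cell of most UMIs in each group, a setting chosen after the values were seen like that of well-covered members, the mean log2 ratio of H2-Aa in the Fxyd4 split was -1.94 in place of -3.51, with -3.13 in batch 1 and -0.75 in batch 2. No paired analysis was possible because no tag had 10 members in a batch, and the other settings named for the tag comparisons were not run.

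Depth limits these values. The floor of 3 UMIs was 3.35 CPM in batch 1 and 5.08 CPM in batch 2, shallow members had high mitochondrial shares, and each group has a pair of values, 1 per batch.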
